A study of Homo sapiens with 12 samples.

Results

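The genes described here encode 32 enzymes and partner subunits that modify tRNA or rRNA, chosen by name for that function and led by NAT10, among the 58302 genes of the deposited input table. All 32 were found there, each in 1 row. The cells were DLD1, a human line from a colorectal adenocarcinoma, at passage 5. The study compared cells with a short hairpin RNA against NAT10 (shNAT10) and cells with a control hairpin (shNC). Each hairpin had 3 input libraries of fragmented total RNA and 3 libraries of RNA pulled down with an antibody to N4-acetylcytidine (ac4C), the base that NAT10 makes. The sources used here do not say whether a hairpin line was a clone or a pool, how many hairpin sequences were used, or whether replicates were separate cultures. P-values therefore measure the spread between these samples only. Levels came from the 6 input libraries, and positions of altered ac4C from the authors' table of differential peaks.

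After transcription, tRNA and rRNA are altered at many bases by dedicated enzymes. NAT10 acetylates cytidines of the small-subunit rRNA and, with the adaptor THUMPD1, of serine and leucine tRNAs, and it has been studied as a writer of ac4C on mRNA. Other enzymes methylate bases or riboses, turn uridine into pseudouridine or dihydrouridine, deaminate adenosine to inosine, or build large bases beside and within the anticodon, where they affect how codons are read.

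Library depth and the targeted gene bear on every value below. Fragments assigned to genes, recovered from the deposited values, ranged from 1220361 to 1300438 in the libraries labelled shNAT10 and from 2630474 to 2747940 in shNC. Of the 8 markers of colorectal epithelium, 7 were above 0 in all 6 libraries, and KRT20 was above 0 in 1 of 6. None of them passed the adjusted test, and the 7 tested had 4 positive and 3 negative differences. KRT8 alone had an unadjusted limma p under 0.05 (0.00326, limma adjusted p = 0.598), as had 3.7% of all genes tested. Groups did not overlap for 4 of the 7, beside 9.61% of all genes tested. Of these, KRT8, KRT18 and KRT19 were higher in the libraries labelled shNAT10 and EPCAM was lower. The summed level of the 8 markers, mostly KRT8, was 8107 to 8583 in the libraries labelled shNAT10 and 5026 to 5384 in shNC, while EPCAM was at 38.3, 80.3 and 128 in the libraries labelled shNAT10, against 226, 370 and 262 in shNC. Of the 6 fibroblast and muscle markers, summed levels were 68.9, 24.3 and 7.40 in the libraries labelled shNAT10 and 3.81, 0 and 0 in shNC, in FPKM (fragments per kilobase of gene, scaled to a common number of fragments per library). In library 1 labelled shNAT10 this sum was TAGLN alone, at 68.9, and in library 2 it was mostly ACTA2. COL1A1, COL1A2, COL3A1 and DCN reached at most 3.18 in any library, for DCN in library 3 labelled shNAT10. The part of these 6 markers in any result was not tested. Leukocyte, endothelial or erythroid, and neural markers summed to at most 3.29 FPKM in any library, and CD3E, PECAM1 and SYP were listed at 0 in all 6. FBL, a gene of ribosome production that dividing cells depend on, was also listed at 0 in 1 library, so a 0 means only that the table lists 0. Libraries 2 and 3 labelled shNAT10 went against their label, because both had more NAT10 than any shNC library.

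NAT10 (ENSG00000135372, chromosome 11, 34105629 to 34146908 in GRCh38) was listed at FPKM 0, 28.1 and 31.4 in the libraries labelled shNAT10, replicates 1 to 3, against 1.24, 3.95 and 2.89 in shNC. These levels rested on 0, 221 and 197 fragments in the libraries labelled shNAT10 and on 22, 68 and 52 in shNC. So the groups overlapped, with 1 library labelled shNAT10 below the control range and the other two above it. In the library at 0, a level of 3 fragments, the limit that a count of 0 allows for counting error alone, would be FPKM 0.412. On the log2(FPKM + 1) scale the fitted difference was 1.48 (SE 1.86, 95% interval -2.18 to 5.15, limma adjusted p = 0.754), and an exact two-sided permutation test gave p = 0.4, where 3 against 3 libraries can give no less than 0.1. With libraries 2 and 3 labelled shNAT10 left out, which assumes that the lone library varied like the shNC ones, it was -1.81. That sign was fixed by the choice, because the library kept is the one where NAT10 was listed at 0.

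THUMPD1, the RNA-binding adaptor that NAT10 needs to acetylate tRNA, was at 5.98, 0 and 0 in the libraries labelled shNAT10, against 0.136, 0.234 and 0 in shNC. The highest of these values came from 54 fragments and the 2 shNC values from 3 and 5. THUMPD1 was above 0 in the library labelled shNAT10 where NAT10 was listed at 0, and listed at 0 in the 2 where NAT10 was high. The fitted difference was 0.77 (SE 1.23, limma adjusted p = 0.817). It was 2.64 (limma adjusted p = 0.145) without libraries 2 and 3 labelled shNAT10, which leaves library 1, the one above 0.

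Levels across the 32 genes were low and uneven. Of the 32, 4 (TRDMT1, CTU1, PUS3 and ADAT3) were listed at 0 in all 6 libraries, 7 had a mean FPKM above 0 and under 1, and 21 reached a mean of at least 1 and entered the test. Only TYW1 and DUS1L were above 0 in all 6 libraries, or 6.25% of the members, against 10.0% of all protein-coding genes. At the other end, 12.5% of members and 42.3% of protein-coding genes were at 0 in all 6. By mean over 6 libraries the highest were TRMT112 at 34.5, TYW1 at 29.7, TRMT6 at 27.2, PUS7 at 24.9, TRMT1 at 23.7 and WDR4 at 21.0 FPKM. Neighbours in that order did not differ beyond their spread over libraries, as TRMT112 alone ran from 0 to 95.6. In 20 of the 28 members above 0, 1 library held over 50% of the summed FPKM, and the same was true of 77.9% of protein-coding genes above 0. In bulk RNA, fewer cells with a transcript and less transcript per cell cannot be told apart. RefSeq spans of THUMPD1, TRMT5, TRMT112, TRMT2A, ELP4, CTU2, PUS3, PUS10 and ADAT3 overlap another protein-coding gene, so that their reads may not be told apart from the neighbour's.

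**Figure D1:**
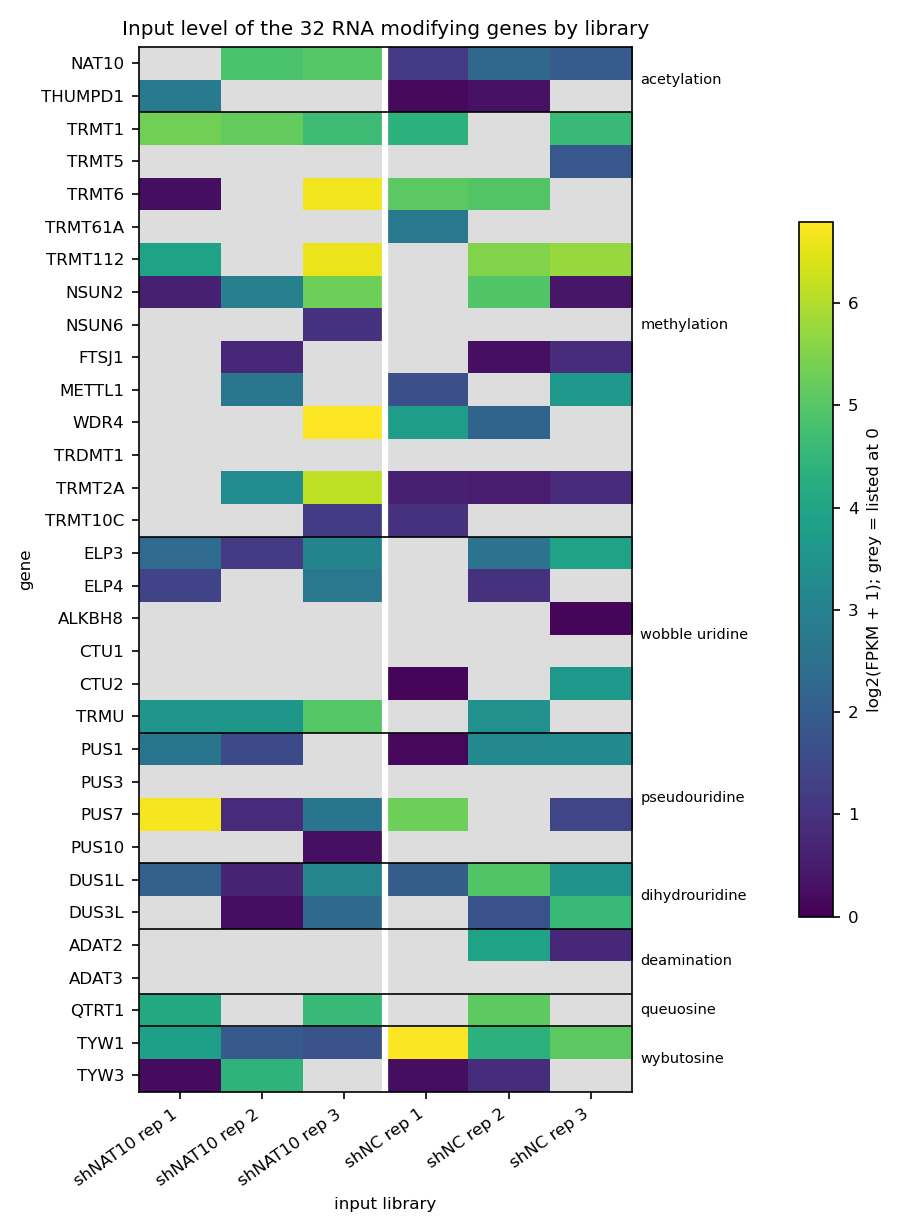
Rows are the 32 genes in blocks by the kind of modification, columns the 3 input libraries labelled shNAT10 and the 3 shNC ones, and colour the log2(FPKM + 1) level, with grey for genes listed at 0. TRDMT1, CTU1, PUS3 and ADAT3 are grey throughout, and within most other rows coloured and grey cells alternate among replicates of the same hairpin.

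Among the 13 genes for methylation, 7 were tested and none passed, with limma adjusted p from 0.754 to 0.973. Of the 7, 4 had a positive and 3 a negative fitted difference. TRMT1 (ENSG00000104907, chromosome 19, 13104907 to 13116740 in GRCh38), which dimethylates a guanosine in the core of many tRNAs, was at FPKM 39.8, 35.1 and 24.1 in the libraries labelled shNAT10, against 19.6, 0 and 23.4 in shNC. All 3 libraries labelled shNAT10 were above all 3 shNC ones, by a narrow margin between 24.1 and 23.4. The fitted difference was 2.07 (SE 1.66, 95% interval -1.21 to 5.34, limma adjusted p = 0.754), and it was 0.57 without shNC replicate 2, the library at 0. That replicate carried 0 fragments of TRMT1, where shNC replicates 1 and 3 had 223 and 270.

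TRMT6 and TRMT61A form the complex that methylates an adenosine in the T loop of tRNA, with TRMT61A as the catalytic subunit. TRMT6 was at 0.191, 0 and 99.9 in the libraries labelled shNAT10, against 32.7, 30.5 and 0 in shNC. Within each hairpin its levels thus ran between 0 and at least 30, and its fitted difference was -1.05 (SE 1.86). TRMT61A was above 0 in 1 library, at 5.58 in shNC replicate 1, from 61 fragments.

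TRMT112, a small protein that stabilises several methyltransferases, was at 14.2, 0 and 95.6 in the libraries labelled shNAT10, against 0, 44.8 and 52.4 in shNC. NSUN2, which makes 5-methylcytidine in tRNA, was at 0.523, 6.79 and 37.9 in the libraries labelled shNAT10, against 0, 29.6 and 0.318 in shNC. The groups overlapped for both, with fitted differences of -0.25 (SE 1.75) and 1.17 (SE 1.88). With 1 library left out, that of NSUN2 ran from 0.0055 (without library 3 labelled shNAT10) to 2.75 (without shNC replicate 2). TRMT2A, a methyltransferase that forms 5-methyluridine in the T loop, was at 0, 8.76 and 70.1 in the libraries labelled shNAT10, against 0.522, 0.461 and 0.736 in shNC. Its shNC values lay close together, on 7, 6 and 10 fragments, while those of the libraries labelled shNAT10 ran on both sides of them. The fitted difference of TRMT2A was 2.5 (SE 1.89, limma adjusted p = 0.754), and 0.99 without library 3 labelled shNAT10.

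METTL1 and its partner WDR4 place 7-methylguanosine in the variable loop of tRNA. METTL1 was at 0, 5.35 and 0 in the libraries labelled shNAT10, against 2.14, 0 and 11.2 in shNC. WDR4 was at 0, 0 and 109.8 in the libraries labelled shNAT10, against 12.7, 3.56 and 0 in shNC, and that top value, from 180 fragments, was the highest of any member in any library. The fitted differences were -0.87 (SE 1.75) for METTL1 and 0.27 (SE 1.90) for WDR4.

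The remaining methylation genes were below the level tested. TRMT5, which methylates the guanosine next to the anticodon, was above 0 in shNC replicate 3 alone, at 2.61. NSUN6, a cytidine methyltransferase for a few tRNAs, was above 0 in library 3 labelled shNAT10 alone, at 0.955 from 2 fragments. FTSJ1, a ribose methyltransferase of the anticodon loop, was at 0, 0.697 and 0 in the libraries labelled shNAT10, against 0, 0.212 and 0.813 in shNC. TRMT10C, a mitochondrial tRNA methyltransferase and subunit of mitochondrial RNase P, was at 0, 0 and 1.33 in the libraries labelled shNAT10, against 0.939, 0 and 0 in shNC. Each of these 4 was above 0 in at most 3 libraries, on at most 51 fragments in any one of them.

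Of the 6 genes for the wobble uridine, 4 were tested and none passed (limma adjusted p from 0.754 to 0.997). TRMU (ENSG00000100416, chromosome 22, 46335714 to 46357340 in GRCh38), the mitochondrial enzyme that adds sulfur to this base, was at 10.5, 11.1 and 30.7 in the libraries labelled shNAT10, against 0, 9.73 and 0 in shNC. Every library labelled shNAT10 was above every shNC library, by less than 1 FPKM at the closest. The fitted difference was 2.90 (SE 1.85, 95% interval -0.75 to 6.54, limma adjusted p = 0.754), the highest among the members tested. It was 2.39 without libraries 2 and 3 labelled shNAT10 (limma adjusted p = 0.699).

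ELP3, the catalytic subunit of the Elongator complex that builds side chains on the wobble uridine, was at 4.14, 1.24 and 7.43 in the libraries labelled shNAT10, against 0, 4.97 and 14.1 in shNC. ELP4, a subunit of the accessory part of the complex, was at 1.55, 0 and 5.50 in the libraries labelled shNAT10, against 0, 0.970 and 0 in shNC. Both groups overlapped, and the fitted differences were 0.04 (SE 1.88) for ELP3 and 1.03 (SE 1.44) for ELP4. CTU2 is the partner of CTU1, the cytosolic enzyme that adds sulfur to the wobble uridine. It was listed at 0, 0 and 0 in the libraries labelled shNAT10, against 0.0837, 0 and 11.4 in shNC, with a fitted difference of -1.25 (SE 1.29). ALKBH8, which finishes the wobble side chain by methylation, rested on 1 fragment in all 6 libraries, in shNC replicate 3.

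Pseudouridine synthases turn uridine into its carbon-linked isomer. PUS7 was at 103, 0.755 and 5.29 in the libraries labelled shNAT10, against 38.4, 0 and 1.65 in shNC. In each hairpin replicate 1 was far above the other replicates, on 635 and 575 fragments, and the fitted difference was 1.15 (SE 1.85, limma adjusted p = 0.818). PUS1, active on nuclear and mitochondrial tRNA, was at 5.27, 1.86 and 0 in the libraries labelled shNAT10, against 0.103, 8.18 and 8.50 in shNC (fitted difference -0.81, SE 1.87, limma adjusted p = 0.893). PUS10 rested on 2 fragments, in library 3 labelled shNAT10.

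Both dihydrouridine synthases had higher single values in shNC, with overlapping groups. DUS1L was at 3.24, 0.556 and 7.51 in the libraries labelled shNAT10, against 3.01, 30.0 and 10.3 in shNC, on 27, 5 and 54 fragments against 61, 592 and 212. DUS3L was at 0, 0.183 and 4.13 in the libraries labelled shNAT10, against 0, 2.26 and 23.3 in shNC. The fitted differences were -1.55 (SE 1.84, limma adjusted p = 0.754) for DUS1L and -1.24 (SE 1.81, limma adjusted p = 0.799) for DUS3L. Neither passed, and shNC replicates 2 and 3 held their highest values.

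ADAT2, the catalytic subunit of the adenosine deaminase that makes inosine at the wobble position, was listed at 0, 0 and 0 in the libraries labelled shNAT10, against 0, 14.3 and 0.691 in shNC (fitted difference -1.57, SE 1.41, limma adjusted p = 0.754). Its partner ADAT3 was listed at 0 throughout. QTRT1, the catalytic subunit that exchanges guanine for queuine at the wobble position, was at 16.4, 0 and 22.9 in the libraries labelled shNAT10, against 0, 33.2 and 0 in shNC (fitted difference 1.20, SE 1.89).

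TYW1 (ENSG00000198874, chromosome 7, 66996833 to 67239514 in GRCh38) makes the tricyclic core of wybutosine, the bulky base beside the anticodon of phenylalanine tRNA. It was at 13.1, 2.75 and 2.36 in the libraries labelled shNAT10, against 108, 19.7 and 32.8 in shNC, on 71, 16 and 11 fragments against 1415, 252 and 437. All 3 libraries labelled shNAT10 lay below all 3 shNC libraries. The fitted difference was -2.91 (SE 1.67, 95% interval -6.20 to 0.37), with the lowest unadjusted p of the members, 0.0819, and it did not pass (limma adjusted p = 0.754). It was -1.58 without libraries 2 and 3 labelled shNAT10 (limma adjusted p = 0.699). TYW1B, a near-identical copy of TYW1 that can share its reads, was listed at 0 in all 6 libraries. TYW3, a methyltransferase of a later step of the same pathway, was at 0.156, 20.2 and 0 in the libraries labelled shNAT10, against 0.192, 0.857 and 0 in shNC, a fitted difference of 1.16 (SE 1.54).

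**Figure D2:**
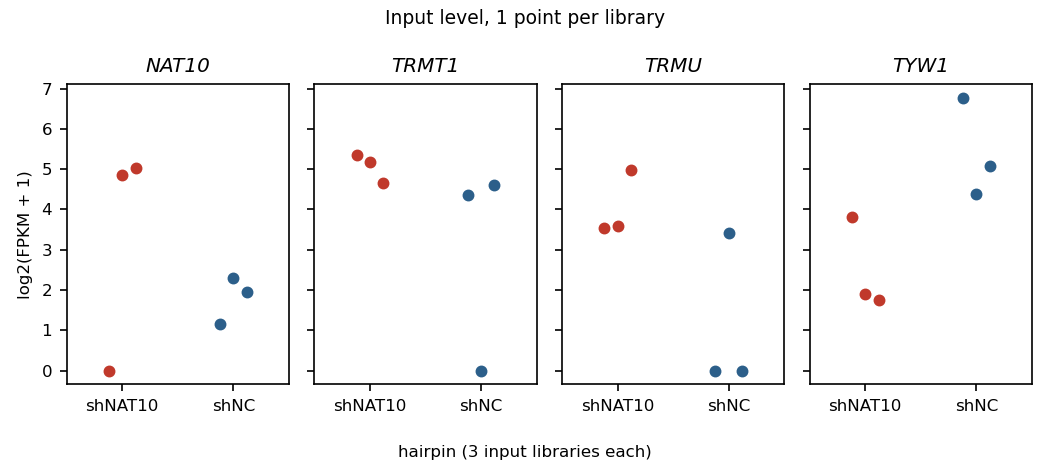
Each panel gives 1 gene, with 1 point per input library, the libraries labelled shNAT10 on the left and shNC on the right, and log2(FPKM + 1) on the vertical axis. NAT10 points labelled shNAT10 lie on both sides of the shNC points, TRMT1 and TRMU points lie above theirs, and TYW1 points lie below theirs.

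Taken as a list, the members showed no call between hairpins. Of the 21 tested, 0 passed limma's adjusted threshold of 0.05 and 0 had an unadjusted p under 0.05, beside 0.19% (0.0856% higher and 0.105% lower) and 3.7% of the 10517 genes tested. Among protein-coding genes these background shares were 0% and 2.19%. Fitted differences ran from -2.91 in TYW1 to 2.90 in TRMU, 12 positive and 9 negative, and 41.2% of all genes tested were positive. The median of the 21 was 0.27 (-0.03 on the TPM scale, where the values of each library have the same sum), beside -0.49 for all genes tested (-0.74 on the TPM scale and -0.15 after quantile normalization). Relative to all genes tested the members' median was thus higher by 0.76. That gap was 0.38 without library 3 labelled shNAT10, -0.05 without libraries 2 and 3, 1.38 without library 2, 1.60 with a pseudocount of 0.1 and 1.35 where a mean FPKM of 5 was required. With no filter, over 28 members, the gap was 0.22, from medians of 0.06 for members and -0.15 for all genes. The gap of 0.76 is a description of genes that had to reach a mean level to enter. Groups did not overlap for 3 of the 21 (background 9.61%): TRMT1 and TRMU higher (background 2.89%) and TYW1 lower (background 6.72%). The 95% interval of 21 of 21 included 0, and that of 19 also included a 2-fold change in either direction, so differences of that size were not detectable. Leaving out 1 library moved the fitted difference by over 1.5 times, or turned its sign, in 17 of the 21. The exceptions were TRMU, TYW1, CTU2 and ADAT2, of which CTU2 and ADAT2 fell below the level tested without the shNC library that held their highest value.

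**Figure D3:**
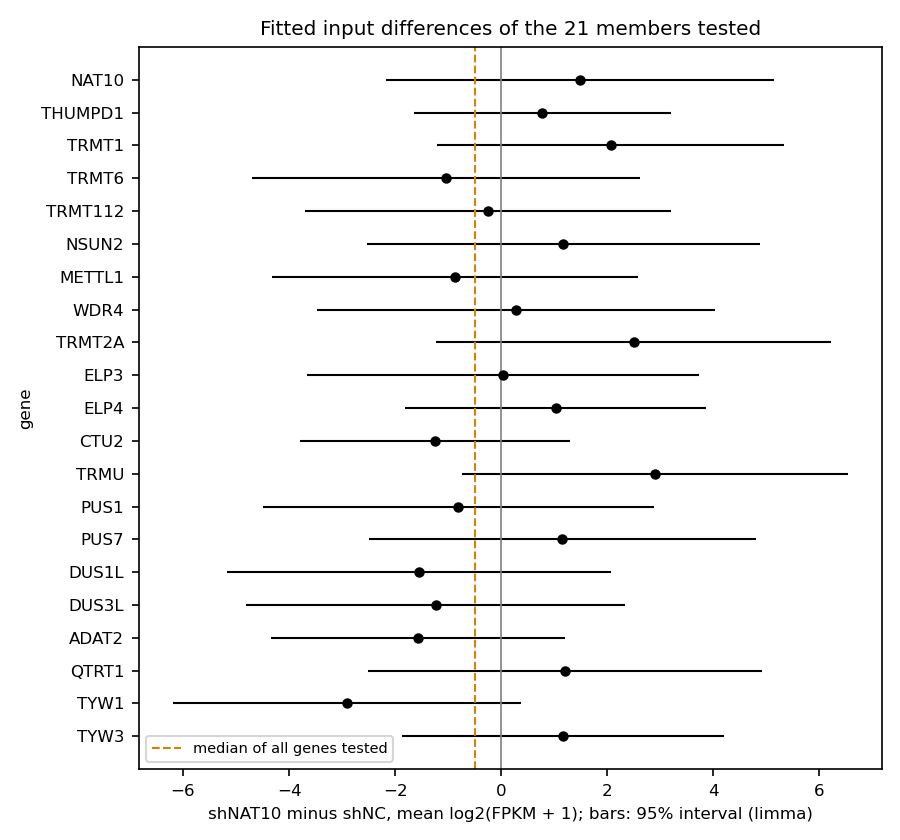
For each of the 21 members tested, the point is the fitted difference, libraries labelled shNAT10 minus shNC, in mean log2(FPKM + 1), and the bar its 95% interval from limma. Every bar crosses 0, and the dashed line marks the median of all genes tested, -0.49.

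One library held many of the highest values. Library 3 labelled shNAT10 had the highest value of 11 of the 28 members above 0 (39.3%), among them NAT10, NSUN2 and TRMU, and of 19.7% of protein-coding genes. Summed over the 32 members, levels were 218, 124 and 557 FPKM in the libraries labelled shNAT10, against 225, 238 and 197 in shNC. The methyltransferase genes WDR4, TRMT6, TRMT112 and TRMT2A made up 67.4% of the sum in library 3, and without them the sums were 204, 115 and 182 in the libraries labelled shNAT10, against 179, 158 and 144 in shNC. These were picked out once their levels were known. As a share of fragments on genes, members took 0.0679% to 0.186% in the libraries labelled shNAT10 and 0.0864% to 0.114% in shNC, so the ranges overlapped.

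Replicates of the same hairpin often disagreed on whether a gene was present. Of the 12 members at FPKM 10 or more in some library labelled shNAT10, 7 (58.3%) were listed at 0 in another such library. In shNC it was 12 of 14 (85.7%), with TRMT6, TRMT112 and NSUN2 among them. Over all protein-coding genes at that level the shares were 52.4% in the libraries labelled shNAT10 and 42.4% in shNC, a set that includes genes far more abundant than any member. The number of members above 0 was 14, 14 and 18 in the libraries labelled shNAT10, against 15, 18 and 17 in shNC.

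**Figure D4:**
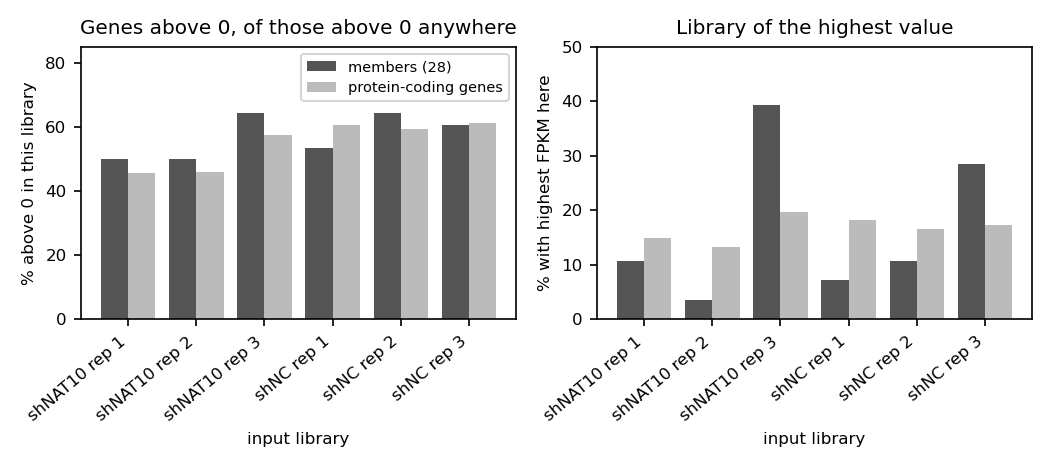
Left, the percentage of genes above 0 in each input library, among the 28 members (dark) and protein-coding genes (light) that were above 0 in at least 1 library; right, the percentage of those genes with their highest FPKM in each library. Members ran from 50% to 64.3% on the left, and on the right 39.3% of them peaked in library 3 labelled shNAT10.

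Subunits that work as pairs were seen together in some libraries and not in others. In 5 pairs each partner was above 0 in at least 1 library, which makes 30 combinations with the 6 libraries. Both partners were above 0 in 8 of these, exactly 1 partner in 16 and neither in 6. Multiplying the partners' own shares of libraries above 0 gives 7.83 joint detections, close to the 8 seen, so the count says nothing particular to partners. ELP3 and ELP4 were the pair most often seen together, in 2 libraries labelled shNAT10 and 1 shNC library. NAT10 and THUMPD1 were both above 0 in 0 libraries labelled shNAT10 and in 2 shNC libraries. METTL1 and WDR4 were together in shNC replicate 1 alone, and in 4 other libraries 1 of them was listed at 0 while the other was above 0. CTU2 and ADAT2 could not be seen with their partners, because CTU1 and ADAT3 were listed at 0 throughout.

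**Figure D5:**
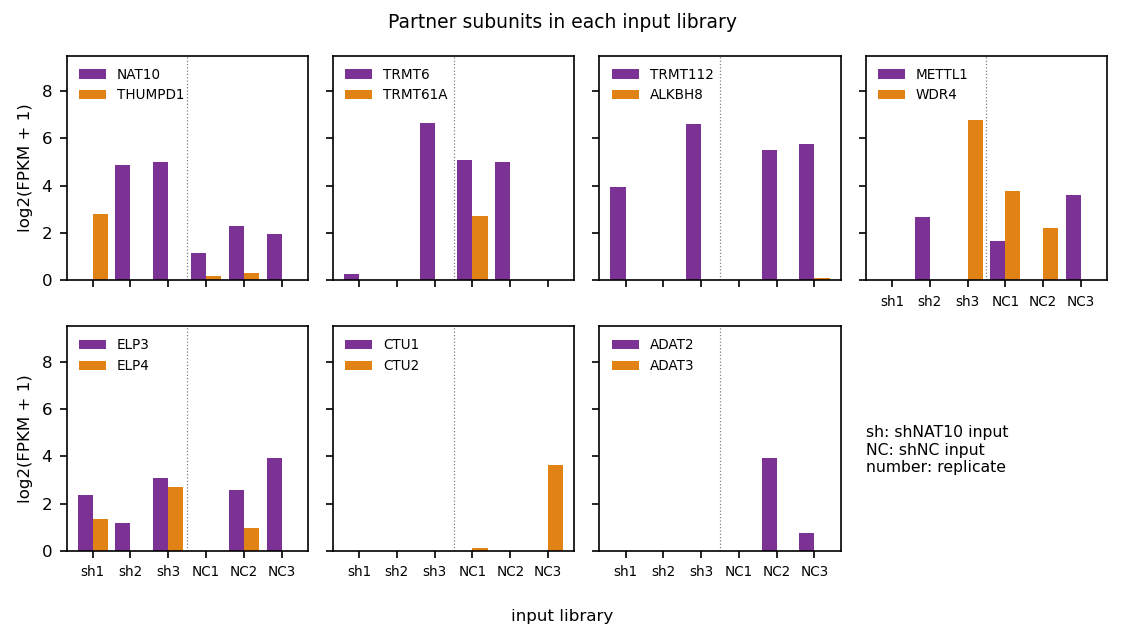
Each panel gives 1 pair of partner subunits, with paired bars for log2(FPKM + 1) in the 3 input libraries labelled shNAT10 (sh1 to sh3) and the 3 shNC libraries (NC1 to NC3). Most libraries show 1 bar or none, as in METTL1 and WDR4, which share a library only at NC1.

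None of the other genes of tRNA and rRNA modification passed the test either. Of 70 such genes found in the table, 66 were above 0 in some library and 47 entries were tested, of which 0 passed limma's adjusted threshold and 1 had an unadjusted p under 0.05, with 20 positive and 27 negative differences and a median of -0.84. The gene under 0.05 was YRDC, which makes the precursor of threonylcarbamoyladenosine beside the anticodon and was also the most abundant of the list. YRDC was at FPKM 154, 152 and 125 in the libraries labelled shNAT10, against 38.4, 39.3 and 3.04 in shNC. All 3 libraries labelled shNAT10 were above all shNC ones. The groups did not overlap, as was the case, in 1 direction or the other, for 4 of the 47 (8.51%, beside 9.61% of all genes tested), of which METTL15, NSUN5 and TRMT10A were lower. The fitted difference of YRDC was 2.95 (SE 1.31, unadjusted p = 0.0254, limma adjusted p = 0.754). ELP5, a further Elongator subunit, was at 169, 96.0 and 8.14 in the libraries labelled shNAT10, against 89.4, 106 and 8.54 in shNC, and FBL, the ribose methyltransferase fibrillarin, was at 33.1, 0 and 89.1 in the libraries labelled shNAT10, against 90.0, 73.1 and 10.3 in shNC. Their groups overlapped, with fitted differences of 0.24 for ELP5 and -1.55 for FBL.

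The authors' deposited table of differential ac4C peaks held 3 peaks in 2 of the members, both of them dihydrouridine synthases, and no peak in NAT10 or THUMPD1. For comparison, 15.4% of protein-coding genes above 0 in some input had a deposited peak, as had 19% of those at a mean FPKM of at least 1. Per the authors' deposited table, DUS1L carried a peak of 151 nt at chr17:82058342-82058492 and one of 211 nt at chr17:82062907-82063117, and DUS3L one of 210 nt at chr19:5786733-5786942 (GRCh38, all on the minus strand). All 3 were annotated as exon, a class that held 15.4% of the 2364 deposited peaks, and lay outside the classes for coding sequence and untranslated regions. Within the RefSeq span of DUS1L (82057506 to 82065804), the peak centres stood 7387 and 2792 nt from the gene start, and in DUS3L (5785140 to 5791163) 4325 nt from it.

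The deposited changes of these peaks did not share a sign. In the authors' deposited table the DUS1L peak farther from the gene start had a log2 change of 5.81 at a differential FDR of 0.01, with a fold enrichment of 2.79. Its peak call was the weakest in that table. The other DUS1L peak had a deposited log2 change of -2.17 (FDR 0.000123) and a fold of 3.54. For the DUS3L peak the authors' deposited table gave -4.12 (FDR 0.00427) and a fold of 11.6, near the table's median fold of 10.5. These folds exceeded those of 11.1%, 17.6% and 52.8% of the deposited peaks. Which hairpin was the numerator was not stated, so no direction by hairpin can be read from these signs, and folds are the authors' values per peak. The inputs of both genes were uneven and in part near the floor. DUS3L had 0, 1 and 18 fragments in the libraries labelled shNAT10, against 0, 27 and 291 in shNC. DUS1L had 27, 5 and 54 against 61, 592 and 212.

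The authors also marked sites of a motif in which cytidine recurs every 3 bases, written as CXX repeats. Their deposited table listed 1 site in the DUS1L peak farther from the gene start (position 82058379), 0 in the other DUS1L peak, and 3 in the DUS3L peak. Those 3 sites lay at 5786760, 5786832 and 5786849, with gaps of 72 and 17 nt. At least 1 site was listed for 62.6% of all deposited peaks. Of the other RNA modification genes, 4 had 1 deposited peak each. The authors' deposited folds were 94.3 in PUS7L, a pseudouridine synthase paralog, 17.6 in PUSL1, 13.8 in NOP10, a protein of the pseudouridylation ribonucleoproteins, and 11.5 in TRMT61B, a mitochondrial adenosine methyltransferase. Their deposited log2 changes were 7.32, 8.13, -3.42 and -3.65 in that order, again of both signs. PUS7L was at most FPKM 0.41 in any input library, on 8 fragments, so its fold of 94.3 belongs to a gene near the floor. For TRMT61B the recovered numbers were 2 fragments in library 1 labelled shNAT10 and 28 in shNC replicate 2. With its FPKM values they imply a gene shorter than its own peak of 418 nt. They are thus probably a divisor of larger true numbers, and do not show how many fragments TRMT61B had. PUSL1 had 557 fragments in shNC replicate 3 and at most 10 in any other library, and NOP10 at most 38 in any.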

How the data were processed

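The deposited gene table holds FPKM values made by the authors. Per the submitters' processing notes, cutadapt 2.5, HISAT2 2.1.0 and HOMER 4.10.4 were used, with no role given, and GRCh38 and GRCm38 are both named. The deposited peak table gives, per the file headers, a p-value, a fold enrichment and a log2 fold change for each peak. Not given in the sources used here are the counting tool and its strand setting, the annotation, the peak caller and any pooling of replicates. Peaks were read as GRCh38, since 98.4% of 2190 matched peaks lay within their RefSeq gene. Columns named NC matched the shNC inputs by title, and columns named sh were taken as shNAT10 by elimination. The number of unmapped sample columns was 0. The immunoprecipitated libraries were not analysed here.

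Inputs were compared with limma 3.58.1 (R 4.3.3; empirical Bayes with a trend) on log2(FPKM + 1). A gene entered where its mean over 6 libraries was at least FPKM 1. Differences are libraries labelled shNAT10 minus shNC, with Benjamini-Hochberg adjustment over all genes tested. The prior had 212.6 degrees of freedom, so errors rest mostly on genes of like level. The fit was run on simulated data whose replicates varied far less than these, so that run does not show how it performs here. Whole fragments were sought as the smallest numbers that fit each gene in all libraries to a relative tolerance of 1e-06, and numbers that fit were found for 15004 of 15014 genes above 0. They can be a divisor of the true number. In library 3 labelled shNAT10, fragments on genes (1220361) exceeded the recovered number that FPKM was scaled to (1197889), so these totals are approximate. Fragments can be PCR copies, so limits cover counting error only. The members and lists were chosen with earlier results of these data known. All members were named, as were other modification genes past the test, with a deposited peak, or among the 3 most abundant; TYW1B and YRDC's unadjusted p were added after values were seen. No genome sequence was used, so the bases of the peaks are not shown.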

Additional observations from a re-analysis of the deposited data

How the results depend on the processing

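Of 17 alternatives, 16 were planned and 1, the fit without libraries 2 and 3 labelled shNAT10, was chosen after seeing the data. No member passed the adjusted test in any of the 17 (0 called each time). The NAT10 difference was 0.62 to 3.13 with 1 replicate left out, -0.23 with a pseudocount of 0.01 and -1.81 without libraries 2 and 3 labelled shNAT10. TRMT1, TRMU, TYW1, DUS1L and QTRT1 kept their sign in all 17. TRMT2A, THUMPD1, ADAT2, CTU2, ELP4 and TYW3 kept theirs in each of the 14 to 16 alternatives where they were tested. Genes called overall numbered 20, and 1 to 34 with 1 replicate left out (1 without each shNC replicate, 12 and 34 without shNAT10 replicates 1 and 2), 7 with a pseudocount of 0.01, 0 with no filter (340 at an unadjusted p under 0.05), 10 at a mean FPKM of at least 5, 0 by eBayes with no trend (480 unadjusted) and 0 without libraries 2 and 3 labelled shNAT10 (1139 unadjusted). The members' median was -0.40 to 0.70 with 1 replicate left out, -0.23 with a pseudocount of 0.01, 0.82 with 0.1, 0.06 with no filter, 1.15 at a mean FPKM of at least 5, 0.87 after quantile normalization and -1.17 without libraries 2 and 3 labelled shNAT10. The sign of WDR4 turned with a pseudocount of 0.1 (-0.70) or 0.01 (-1.79), on the TPM scale (-0.11), and without libraries 2 and 3 labelled shNAT10 (-1.99). ELP3 turned on the TPM scale (-0.0302), and TRMT112, NSUN2 and PUS1 without libraries 2 and 3 labelled shNAT10 (0.17, -1.17 and 0.45). With 1 replicate left out the sign turned for 7 members: WDR4 ranged from -1.99 (without shNAT10 replicate 3) to 1.41, ELP3 from -1.05 (without shNC replicate 1) to 0.91, TRMT112 from -2.12 to 1.51 (without shNAT10 replicate 2), PUS7 from -0.50 (without shNAT10 replicate 1) to 2.69, TRMT6 from -3.22 to 0.10 (without shNAT10 replicate 2), METTL1 from -1.76 to 0.0627 (without shNC replicate 3) and DUS3L from -2.29 to 0.0151 (without shNC replicate 3). Without a turn of sign, PUS1 ranged from -1.83 to -0.11 (shNC replicate 1 and shNAT10 replicate 3 left out in turn), QTRT1 from 0.35 (without shNC replicate 1 or 3) to 2.90 (without shNC replicate 2) and DUS1L from -2.29 (without shNC replicate 1) to -0.81 (without shNC replicate 2). The cause was not tested. Libraries with the same number did not deviate together (correlations 0.0012, -0.021 and 0.015). With so many genes listed at 0 in 1 replicate and not in another, these values cannot show whether the numbers pair libraries. With the replicate block NAT10 stayed at 1.48 and 21 genes were called. Of the 3 deposited peaks, 2 had a differential FDR under 0.01 and 3 a fold of at least 2. Members at 0 or on a few fragments in every library give no measurable difference in these values, and why they were so low was not tested.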
